A study of Mus musculus with 20 samples.

Results

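Genes of innate immune sensing and inflammasome signaling were followed in left ventricular heart tissue of mice on 4 diets. They were taken by gene symbol from the deposited counts: the Toll-like receptors Tlr2, Tlr4, and Tlr7, the inflammasome genes Nlrp3, Pycard, Casp1, and Gsdmd, and the cytokines Il1b, Il18, and Tnf. All 10 were among the 15956 genes listed, and 9 of the 10 had enough counts to be among the 13991 genes tested, Nlrp3 being the exception. Tissue came from 20 male mice, 5 on each diet. NP was the control diet with normal protein, and LP was a low protein diet with less casein. HF was a high-fat diet with the casein content of the control, and HF+LP combined more fat with less casein. No gene was altered in any group, and the strain is not given in the sources used here. By the labels all mice were 18 months old, whereas the study's methods place tissue collection earlier, after a diet begun in middle age. Mice are named by their diet and the animal number in the labels.

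Toll-like receptors recognize microbial products and molecules released by damaged cells and signal to NF-kappaB, which raises transcription of cytokine genes. TLR2 and TLR4 act at the cell surface, while TLR7 detects RNA inside endosomes, so the 3 receptors are not all surface receptors. An inflammasome forms when a sensor such as NLRP3 binds the adapter ASC, encoded by Pycard, and recruits caspase-1, which matures interleukin-1β and interleukin-18 and cleaves gasdermin D into a membrane pore. In the heart these genes are used by resident and recruited macrophages, and some of them by fibroblasts, endothelial cells, and cardiomyocytes. Caspase-1, gasdermin D, and both interleukins are controlled largely by cleavage of the protein, which RNA counts do not measure.

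No member passed the study's threshold in any comparison between diets. A call needed an adjusted p under 0.01 and a base mean, the mean normalized count over the 20 libraries, over 50, which only Tlr4, Pycard, Casp1, and Gsdmd reached. At an unadjusted p under 0.05, Tlr7, Tlr4, and Casp1 were higher in HF than in NP, as were 5.17% of all genes tested. Il1b and Pycard were higher in LP than in NP, as were 5.02% of all genes. No member reached that level between HF+LP and HF, where 2.41% of all genes were higher and 2.43% lower. Casp1 in HF and Il1b in LP were the members of which every mouse lay above every NP mouse. Of all genes tested, 2.07% showed this in HF and 0.443% in LP. The p-values came from edgeR's quasi-likelihood test, and none of these member differences stood after Benjamini-Hochberg adjustment over all genes tested.

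The sequences just upstream of Casp1 and Il1b are shown because those are the members whose diet groups separated. Both are RefSeq sequences of build GRCm38.p6 and cover the 250 bases before the start of the gene, written 5′ to 3′ on the strand of the gene. Casp1 lies on the plus strand of chromosome 9 (window chr9:5298267-5298516), and the capitals mark the letters GAGGAA on the opposite strand, the core bound by the myeloid factor PU.1, 108 to 103 bases before the start. Il1b lies on the minus strand of chromosome 2 (window chr2:129371140-129371389), and the capitals mark the TATA box letters TATAAA, 31 to 26 bases before the start.
Casp1: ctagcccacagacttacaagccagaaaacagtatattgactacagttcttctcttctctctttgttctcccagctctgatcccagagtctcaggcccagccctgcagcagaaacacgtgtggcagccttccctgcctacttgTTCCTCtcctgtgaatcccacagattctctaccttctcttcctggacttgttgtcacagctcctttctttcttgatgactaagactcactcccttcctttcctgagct
Il1b: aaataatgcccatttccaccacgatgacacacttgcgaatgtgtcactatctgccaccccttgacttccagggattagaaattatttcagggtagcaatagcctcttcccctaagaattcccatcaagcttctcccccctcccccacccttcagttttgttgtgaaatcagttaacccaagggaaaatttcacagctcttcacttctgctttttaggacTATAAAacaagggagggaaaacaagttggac
A window was found for 7 of the 10 members, and both strands were searched. GAGGAA was present in 23.3% and TATAAA in 12.4% of all 32851 windows of this length. The interferon-stimulated response element and kappaB were each searched as a single fixed consensus, found in 2.98% and 0.356% of all windows. Neither fixed consensus had a match in the windows of the 7 members. Looser forms were not searched, so kappaB-like or similar letters in these windows are not excluded. Such matches describe letters in a window and are not measured binding sites.

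The libraries held between 12559607 and 23331907 counts. Several libraries stood apart from the rest of their group. LP mouse 13 had the lowest median correlation with its group, 0.907, and LP mouse 20 had a summed normalized count of 2873 over 5 T cell markers, against 11.8 to 50.4 in the other 19 mice. Atrial markers summed to 245765 in LP mouse 13 and 204494 in HF mouse 1. They were also high in LP mouse 15 (87505), HF+LP mouse 3 (87124), HF mouse 3 (73696.5), and NP mouse 5 (60406), and lowest in HF+LP mouse 5 (970). These markers include Nppa, which the study reports as raised in hearts of obese mice. Whether the libraries held tissue from outside the ventricle was not tested. Cardiomyocyte markers were high in all mice, with sums of 491895 to 813489. Reads of mitochondrial genes made up 38.12% to 39.76% of the counts in HF and 41.26% to 47.11% in NP, and ranged more widely in LP (35.37% to 44.55%) and HF+LP (38.47% to 47.15%). The study's mice were group-housed, and the labels do not tie them to cages, so p-values measure the spread between these mice only.

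Expression of the receptors is described first, beginning with Tlr4, the receptor for lipopolysaccharide (GRCm38 chromosome 4, 66827584 to 66930284, plus strand). Its normalized counts, the raw counts scaled for library size and composition, were 107, 87.9, 53.9, 81.7, and 91.6 in NP mice 4, 5, 3, 6, and 8. HF mice 1 to 5 had 92.8, 128, 117, 116, and 127, and HF+LP mice 1 to 5 had 109, 116, 110, 141, and 76.3. Among the HF mice, 4 of 5 lay above every NP mouse, and HF mouse 1 lay inside the NP range. Group means were 84.5 ± 19.6 for NP, 116 ± 14.2 for HF, and 111 ± 23.1 for HF+LP (SD, n = 5). LP mice lay between 74.4 and 129, overlapping the NP range of 53.9 to 107. In HF relative to NP, Tlr4 had a log2 fold change of 0.46 (standard error 0.19), a 1.38-fold higher level with a 95% interval of 1.04 to 1.82. The unadjusted p was 0.023 and the adjusted p from edgeR was 0.274. Without NP mouse 3, which had the lowest value of all 20 mice, the log2 fold change was 0.34 with an unadjusted p of 0.0765.

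The estimate for Tlr4 in HF+LP relative to HF was close to 0, at −0.07 on the log2 scale with a 95% interval of −0.47 to 0.32. HF+LP relative to NP gave 0.39 (95% interval −0.01 to 0.79), with 4 of 5 HF+LP mice above every NP mouse and an unadjusted p of 0.0515. DESeq2 gave an unadjusted p of 0.0492 for the same difference in Tlr4.

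Tlr7, the endosomal receptor for single-stranded RNA, is on chromosome X (167304929 to 167330558, minus strand). NP mice 4, 5, 3, 6, and 8 had normalized counts of 48.9, 27.5, 36.3, 37.9, and 35.1, while HF mice 1 to 5 had 29.2, 64.6, 52.4, 56.3, and 74.4. HF mouse 1 was as low as the NP mice, and the other 4 HF mice lay above all of them. HF+LP mice 1 to 5 had 47.9, 52.3, 34.2, 43.7, and 39.2, and LP mice 2, 13, 20, 15, and 5 had 22.6, 34.0, 42.3, 35.3, and 22.6. Means were highest in HF (55.4 ± 16.9) and lowest in LP (31.4 ± 8.61), with NP (37.1 ± 7.69) and HF+LP (43.5 ± 7.11) between them and overlapping both. The HF group exceeded NP by 0.58 on the log2 scale (standard error 0.23), or 1.49-fold with a 95% interval of 1.06 to 2.11, and the edgeR adjusted p was 0.268 (unadjusted p = 0.0218). This estimate grew to 0.73 without HF mouse 1 (unadjusted p = 0.00256) and shrank to 0.45 without HF mouse 5 (unadjusted p = 0.0798).

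Between HF+LP and HF, Tlr7 differed by −0.36 (95% interval −0.84 to 0.13, unadjusted p = 0.138), and HF+LP mice lay inside the HF range. Without HF mouse 1 the difference was −0.51, with an unadjusted p of 0.0249. HF mouse 1 also had the lowest summed interferon response markers of its group, 2215 against 3603 to 8221 in the other 4 HF mice. It was the lowest HF mouse in summed macrophage (5032), monocyte (99.2), and neutrophil (71.2) markers as well, and the highest in atrial markers (204494). The part of these traits in the Tlr7 estimates was not tested.

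Tlr2, which pairs with other receptors to detect bacterial lipoproteins (chromosome 3, 83836272 to 83841767, minus strand), varied little between diets. Its mean was 32.9 ± 6.38 for NP, 37.3 ± 10.7 for LP, 36.6 ± 6.53 for HF, and 30.6 ± 6.83 for HF+LP (SD, n = 5). All 4 groups overlapped, from 21.3 in an HF+LP mouse to 49.2 in an LP mouse. The log2 fold changes were 0.16 in HF relative to NP, 0.19 in LP relative to NP, and −0.26 in HF+LP relative to HF, each with a 95% interval that included 0. Single mice moved these small estimates for Tlr2, to 0.051 without NP mouse 6 and 0.25 without HF mouse 2 in HF, to 0.066 without LP mouse 13 in LP, and to −0.15 without HF+LP mouse 4 in HF+LP relative to HF.

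**Figure D1:**
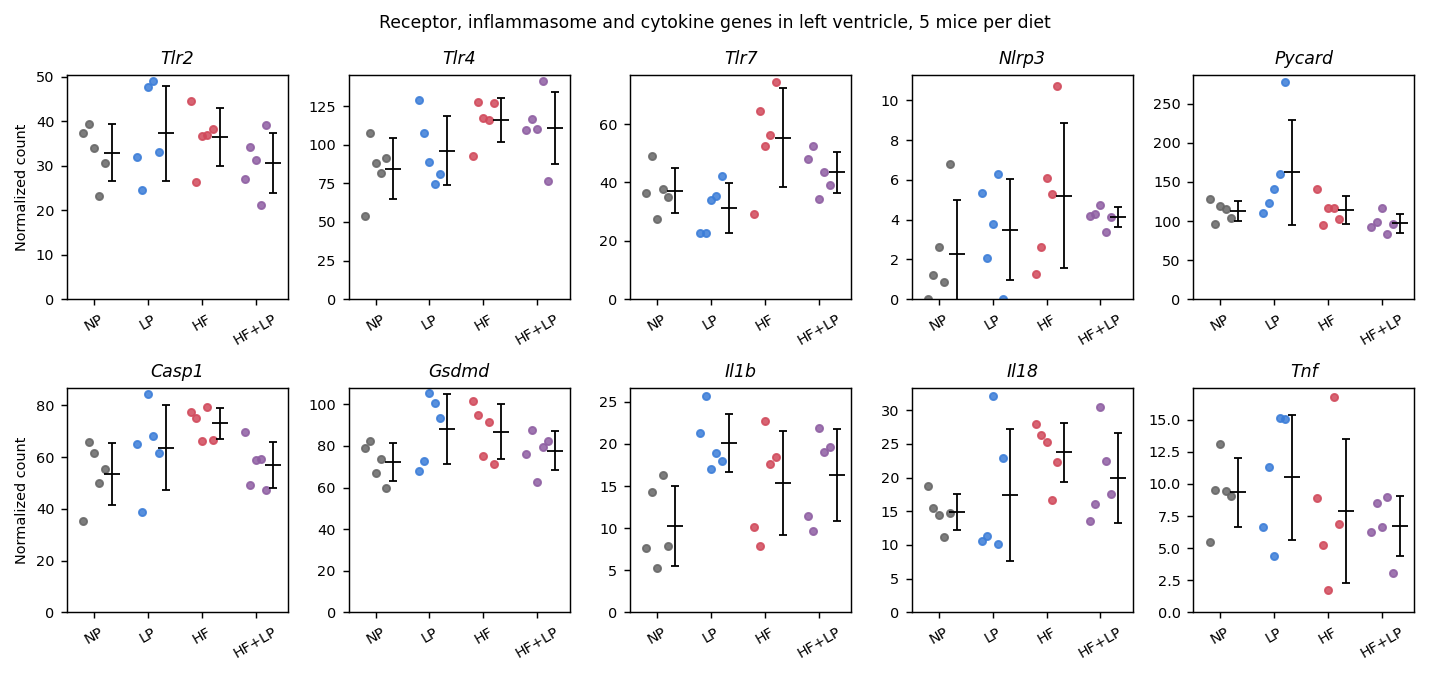
Normalized counts of the 10 genes (linear vertical axis from 0, a separate scale for each gene) in each mouse, by diet group. Points are mice in order of animal number, and the bar beside them is the mean with 1 SD. All 5 HF points of Casp1 and all 5 LP points of Il1b lie above the NP points, and a single LP mouse, number 20, stands at 278 for Pycard.

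Among the inflammasome genes, the sensor Nlrp3 (chromosome 11, 59541568 to 59566956, plus strand) was too low to be tested with the other genes. NP mice 4, 5, 3, 6, and 8 had 1, 2, 0, 1, and 6 raw counts. HF mice 1 to 5 had 1, 2, 7, 6, and 14, and HF+LP mice 1 to 5 had 4, 4, 5, 3, and 4. LP mice 2, 13, 20, 15, and 5 had 4, 6, 0, 5, and 2. With 14 counts at most, the groups overlapped throughout. A two-sided exact permutation test of log2 CPM (library-size-scaled counts) gave p = 0.159 for HF against NP, where the smallest p that 5 mice against 5 allow is 0.00794, and p = 0.81 for HF+LP against HF. In a fit of all 15956 genes without a filter, edgeR gave Nlrp3 a log2 fold change of 1.25 in HF relative to NP (standard error 0.72, unadjusted p = 0.0954, adjusted p = 0.533).

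Pycard, encoding the adapter ASC that links sensor and caspase (chromosome 7, 127989708 to 127993867, minus strand), was set apart by 1 LP mouse. Its normalized counts were 110, 142, 278, 160, and 123 in LP mice 2, 13, 20, 15, and 5, and between 96.7 and 129 in NP. HF mice lay between 94.9 and 141, and HF+LP mice between 82.9 and 116. LP mouse 20, at 278, was far above all other mice and was also the mouse with the high T cell markers. In that mouse Cd8a reached 1185, Cd3d 656, Cd4 580, Cd3e 256, and Cd3g 197 normalized counts.

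In LP relative to NP, Pycard had a log2 fold change of 0.53 (standard error 0.20, unadjusted p = 0.0131, adjusted p = 0.594 from edgeR), with 3 of 5 LP mice above every NP mouse. Without LP mouse 20 it was 0.25 (unadjusted p = 0.0981), and without both LP mice 13 and 20, a choice made after the data had been seen, it was 0.22 (unadjusted p = 0.178). HF+LP relative to LP gave −0.75 (standard error 0.20, unadjusted p = 0.00111, adjusted p = 0.0931 from edgeR), with 4 of 5 HF+LP mice below every LP mouse. That difference was −0.47 without LP mouse 20 and −0.44 without LP mice 13 and 20 (unadjusted p = 0.0113). DESeq2 gave Pycard an adjusted p of 0.0287 here, within a range of 0.0287 to 0.995 over all alternatives. In HF relative to NP the estimate for Pycard was 0.02, with a 95% interval of −0.40 to 0.44.

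Casp1 encodes the protease at the centre of the inflammasome (chromosome 9, 5298517 to 5307265, plus strand) and starts just after the window printed above. NP mice 4, 5, 3, 6, and 8 had normalized counts of 65.6, 61.6, 35.2, 49.9, and 55.4, and HF mice 1 to 5 had 77.6, 75.1, 66.4, 79.2, and 66.7. No HF mouse overlapped with the NP group, though the lowest HF value, 66.4, was close to the highest NP value, 65.6. HF+LP mice 1 to 5 had 69.8, 49.1, 59.0, 59.4, and 47.4, so that 4 of 5 lay below every HF mouse. LP mice 2, 13, 20, 15, and 5 had 65.2, 84.3, 61.7, 68.1, and 39.0, and overlapped with all other groups.

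Mean Casp1 was 53.6 ± 11.9 for NP, 63.6 ± 16.3 for LP, 73.0 ± 6.06 for HF, and 56.9 ± 9.03 for HF+LP (SD, n = 5). In HF it was 1.36-fold the NP level (95% interval 1.03 to 1.80), a log2 fold change of 0.45 (standard error 0.19, unadjusted p = 0.0287, adjusted p = 0.302 from edgeR). Among all genes tested, 2.07% had every HF mouse above every NP mouse. Leaving out NP mouse 3, the lowest of all mice for Casp1, gave 0.33 (unadjusted p = 0.0919), and the unadjusted p was also above 0.05 without NP mouse 6, HF mouse 1, or HF mouse 4. HF+LP relative to HF gave −0.36 (95% interval −0.76 to 0.04, unadjusted p = 0.0736). With the HF and HF+LP libraries alone in the model, the unadjusted p for Casp1 was 0.0345.

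Gsdmd encodes gasdermin D, the pore protein cut by caspase-1 (chromosome 15, 75862327 to 75867408, plus strand). Its means were 72.5 ± 9.14 for NP, 88.1 ± 16.9 for LP, 86.9 ± 13.1 for HF, and 77.7 ± 9.36 for HF+LP (SD, n = 5). In both LP and HF, 3 of 5 mice lay above every NP mouse and the others overlapped with it. The log2 fold changes were 0.29 in LP (unadjusted p = 0.0753) and 0.26 in HF (unadjusted p = 0.109) relative to NP, and −0.16 in HF+LP relative to HF. Without LP mice 13 and 20, Gsdmd in LP relative to NP was 0.15 (unadjusted p = 0.383).

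Of the cytokines, Il1b is the inducible gene of interleukin-1β (chromosome 2, 129364570 to 129371139, minus strand), whose upstream sequence with its TATA box is printed above. Its normalized counts in NP mice 4, 5, 3, 6, and 8 were 14.3, 5.25, 7.70, 16.3, and 7.92. LP mice 2, 13, 20, 15, and 5 had 21.3, 17.0, 17.9, 18.9, and 25.6. All 5 LP mice lay above the highest NP mouse, which 0.443% of all genes tested showed in this comparison. HF mice 1 to 5 had 10.2, 7.91, 22.7, 17.6, and 18.4, and HF+LP mice 1 to 5 had 11.5, 9.62, 21.9, 19.04, and 19.6. Both high-fat groups contained 2 mice inside the NP range and 3 above it.

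The LP level of Il1b was 1.90-fold that of NP, a log2 fold change of 0.93 (95% interval 0.22 to 1.64, standard error 0.33, unadjusted p = 0.0117, adjusted p = 0.587 from edgeR). When each mouse was left out in turn the estimate stayed between 0.77 and 1.17, with an unadjusted p of at most 0.0354. The values rest on few reads, between 4 and 27 raw counts per library. HF relative to NP gave 0.58 (95% interval −0.14 to 1.29), and HF+LP relative to HF gave 0.06 (95% interval −0.63 to 0.75). The summed normalized count of neutrophil markers lay between 94.5 and 382 in LP and between 75.8 and 166 in NP, and all 3 tested neutrophil markers were higher in LP at an unadjusted p under 0.05. The same 3 were also higher in HF than in NP at that level. Mean sums were 212 in HF, 198 in HF+LP, 195 in LP, and 102 in NP. By mouse, the sums were 71.2, 232, 300, 237, and 221 in HF mice 1 to 5. They were 147, 99.4, 258, 198, and 288 in HF+LP mice 1 to 5. Other markers were also higher in LP than in NP at that level, namely 2 of 3 B cell, 2 of 4 adipocyte, 1 of 3 monocyte, and 1 of 5 erythroid markers and the 1 T cell marker tested, and all 4 adipocyte markers were lower in HF+LP than in LP. The adipocyte sum reached 2998 in LP mouse 13, and without LP mice 13 and 20 the Il1b estimate was 1.07 (unadjusted p = 0.0123). The part of these markers in the Il1b difference was not tested.

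Il18, expressed constitutively by many cells (chromosome 9, 50554827 to 50581840, plus strand), had normalized counts of 15.5, 14.4, 18.7, 11.2, and 14.7 in NP mice 4, 5, 3, 6, and 8. HF mice 1 to 5 had 28.0, 26.4, 25.3, 16.7, and 22.2, with 4 of 5 above every NP mouse. The log2 fold change in HF was 0.66 (95% interval −0.01 to 1.34, unadjusted p = 0.0502, adjusted p = 0.382 from edgeR). The unadjusted p for Il18 was under 0.05 in several alternatives, among them 0.0426 with RLE size factors and 0.00729 with only the HF and NP libraries in the model. In others it was higher, up to 0.113 with 1 mouse left out and 0.438 over all alternatives, where the lowest estimate was 0.36. HF+LP mice ranged from 13.5 to 30.4 and LP mice from 10.1 to 32.1, the highest being LP mouse 13. HF+LP relative to HF gave −0.24 for Il18 (95% interval −0.89 to 0.42), −0.48 without HF+LP mouse 3, and −0.12 without HF+LP mouse 1.

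Tnf, encoding tumor necrosis factor (chromosome 17, 35199381 to 35202007, minus strand), had between 2 and 21 raw counts per library. Its mean normalized count was 9.33 ± 2.70 for NP, 10.5 ± 4.87 for LP, 7.91 ± 5.58 for HF, and 6.70 ± 2.33 for HF+LP (SD, n = 5). Tnf was the 1 tested member with a negative estimate in HF relative to NP, −0.22 on the log2 scale, and its 95% interval of −1.18 to 0.74 allowed a change of more than 1.5-fold in either direction.

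Across the members in HF relative to NP, 0 of the 9 tested were called, 3 were higher at an unadjusted p under 0.05, and none was lower. DESeq2 also called 0 and had 3 at an unadjusted p under 0.05. Over all genes tested in this comparison, edgeR called 0.264% (37 genes), with 5.17% higher and 7.91% lower at an unadjusted p under 0.05, and DESeq2 called 163 genes. The estimate was positive for 8 of 9 members, with a median log2 fold change of 0.45 against −0.001 over all genes tested.

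HF+LP relative to HF, the contrast for low protein within high fat, called 0 members and had 0 at an unadjusted p under 0.05, with edgeR and with DESeq2. Of all genes tested, 0% were called by edgeR, with 2.41% higher and 2.43% lower at an unadjusted p under 0.05, and DESeq2 called 16 genes. The estimate was negative for 8 of 9 members and the median was −0.24, against 0.02 over all genes. HF+LP and NP are both relative to the same 5 HF mice, so opposite signs in the pair of contrasts are not independent. In HF+LP relative to NP, edgeR called 0 members and had 0 at an unadjusted p under 0.05, while DESeq2 called 0 and had Tlr4 alone at that level. Over all genes, edgeR called 0.0286% (4 genes), with 3.9% higher and 4.87% lower at that level, and DESeq2 called 31 genes.

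In LP relative to NP, both edgeR and DESeq2 called 0 members and had 2 at an unadjusted p under 0.05, Il1b and Pycard. Over all genes tested, edgeR called 0%, with 5.02% higher and 2.21% lower at an unadjusted p under 0.05, and DESeq2 called 4 genes. HF+LP relative to LP called 0 members with either tool and had Pycard alone at an unadjusted p under 0.05, where edgeR called 0.1% of all genes (14), with 6.26% higher and 9.66% lower at that level, and DESeq2 called 84. Without LP mice 13 and 20, Pycard was joined by Tlr7 (0.69, unadjusted p = 0.0202) and Il18 (0.88, unadjusted p = 0.00813).

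The interaction asks whether the effect of low protein differed between the high-fat and control-fat diets. It called 0 members with edgeR and DESeq2, and over all genes 0% with edgeR and 1 gene with DESeq2. At an unadjusted p under 0.05 it was negative for Pycard (−0.76, unadjusted p = 0.0125) and Casp1 (−0.61, unadjusted p = 0.0332) from edgeR, while DESeq2 also had Gsdmd (unadjusted p = 0.0437). Of all genes tested, 2.86% were higher and 4.31% were lower in the interaction at that level. Pycard stood at −0.45 without LP mice 13 and 20 (unadjusted p = 0.0414), and Casp1 at −0.45 (unadjusted p = 0.117).

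**Figure D2:**
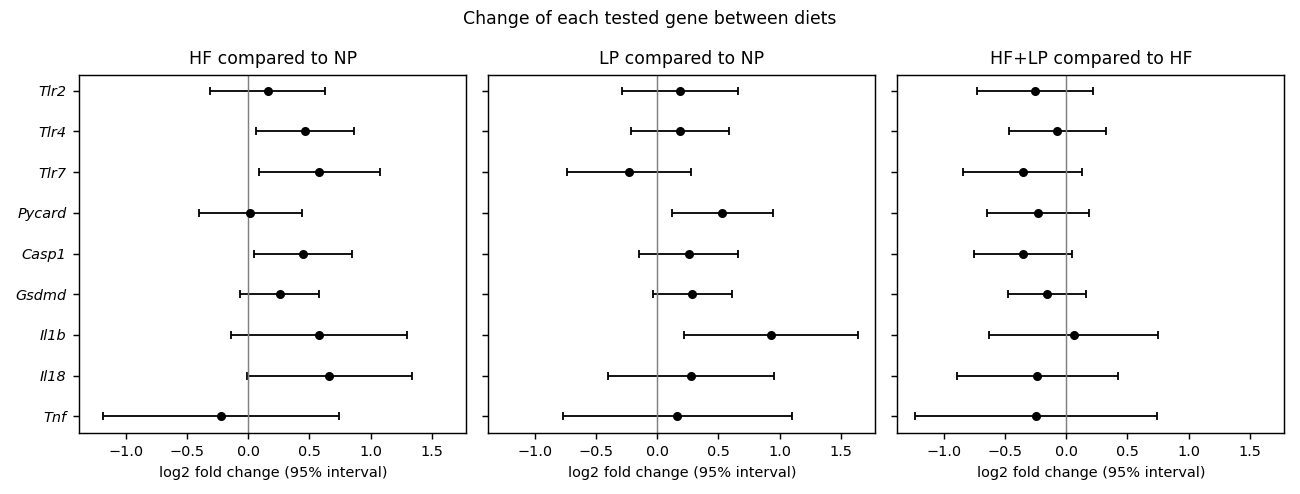
The log2 fold change of each tested member (horizontal axis) with its 95% interval in HF relative to NP, LP relative to NP, and HF+LP relative to HF, from edgeR's quasi-likelihood model of all 20 libraries. The interval lies above 0 for Tlr4, Tlr7, and Casp1 in the first panel and for Pycard and Il1b in the second, and includes 0 for all 9 genes in the third.

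Other genes of the pathways were followed through lists, and 0 of them were called in any comparison. Their counts at an unadjusted p under 0.05 are to be read against the shares over all genes tested, 5.17% higher and 7.91% lower in HF relative to NP, and 2.41% higher and 2.43% lower in HF+LP relative to HF. Among 3 other Toll-like receptors tested in HF relative to NP, 2 were higher at an unadjusted p under 0.05. They were Tlr13, a receptor for bacterial ribosomal RNA, with 21.1 ± 4.02 in HF and 10.6 ± 4.83 in NP (log2 fold change 0.94, unadjusted p = 0.00924), and Tlr3, the receptor for double-stranded RNA (0.28, unadjusted p = 0.0479). Between HF+LP and HF, Tlr3 differed by −0.29 (unadjusted p = 0.0428) and Tlr13 by −0.64 (unadjusted p = 0.0582). Tlr9, Il6, and Il10 were not analysed here.

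Of 22 cofactors, adapters, and kinases of the receptors, 2 were higher in HF than in NP at an unadjusted p under 0.05 and none was lower, against 5.17% and 7.91% of all genes. Cd14, the coreceptor that hands lipopolysaccharide to TLR4, had 68.3 ± 19.05 in HF and 45.2 ± 7.45 in NP (0.61, unadjusted p = 0.0294). Ly86, the partner of the receptor homolog CD180, had a log2 fold change of 1.03 (unadjusted p = 0.034). The lipopolysaccharide-binding protein gene Lbp was the 1 gene of the list to reach that level between HF+LP and HF, with 104 ± 21.7 in HF+LP and 159 ± 31.2 in HF (−0.61, unadjusted p = 0.00969). Ly96, encoding the MD-2 subunit that binds lipopolysaccharide with TLR4, went the other way in its estimates, −0.58 in HF relative to NP (unadjusted p = 0.0648) and 0.61 in HF+LP relative to HF (unadjusted p = 0.0526).

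Among 16 other inflammasome genes tested, 3 were higher in HF than in NP at an unadjusted p under 0.05, where 5.17% of all genes were. Naip2 (0.82, unadjusted p = 0.0211) and Nlrc4 (0.98, unadjusted p = 0.0219) encode a sensor and its partner for bacterial secretion proteins and flagellin, and Panx1 (0.63, unadjusted p = 0.04) encodes a channel that releases ATP. The ATP receptor P2rx7, which triggers potassium efflux upstream of NLRP3, was lower in HF+LP (51.4 ± 4.46) than in HF (68.4 ± 11.3) at an unadjusted p of 0.0135, a log2 fold change of −0.42. Of 14 NF-kappaB genes, Nfkbiz, an inducible nuclear regulator, was the 1 gene at an unadjusted p under 0.05 in HF relative to NP (0.41, unadjusted p = 0.0394), and no gene of that list reached it in HF+LP relative to HF. In LP relative to NP, 3 of the 14 were higher at that level, against 5.02% of all genes, among them Nfkbiz (0.46, unadjusted p = 0.0226) and Tnfaip3, an inhibitor of NF-kappaB signaling (95% interval 0.11 to 2.33, unadjusted p = 0.031). In the interaction 3 of the 14 were lower, against 4.31% of all genes. Of 13 tested genes of the interleukin-1 family, TNF, and their receptors, 0 reached it in HF relative to NP or in HF+LP relative to HF. All 13 estimates were positive in HF relative to NP. In the interaction 1 of the 13 was lower at that level, Tnfrsf1b (−0.79, unadjusted p = 0.0253).

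Marker genes of immune cells were followed beside the members, and 0 of them were called. Bulk tissue cannot tell more cells of a type from more RNA per cell. The summed normalized count of 10 macrophage markers lay between 3808 and 5384 in NP and between 5032 and 7063 in HF, with means of 4625 and 6185. All 10 had a positive estimate and 7 of 10 were higher in HF at an unadjusted p under 0.05. Cardiomyocyte markers stood the other way, with mean sums of 723304 in NP and 571591 in HF, all 6 estimates negative, and 3 of 6 lower in HF at an unadjusted p under 0.05. The part of the cardiomyocyte markers and of the mitochondrial share in the members' values was not tested. The macrophage sum was 4595 ± 643 in HF+LP and 5113 ± 1934 in LP. Monocyte markers averaged 107 in NP and 225 in HF, and 8 interferon response genes summed to 2401 ± 1081 for NP, 5684 ± 2615 for HF, and 2227 ± 411 for HF+LP (SD, n = 5). All 8 interferon response genes were lower in HF+LP than in HF at an unadjusted p under 0.05.

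**Figure D3:**
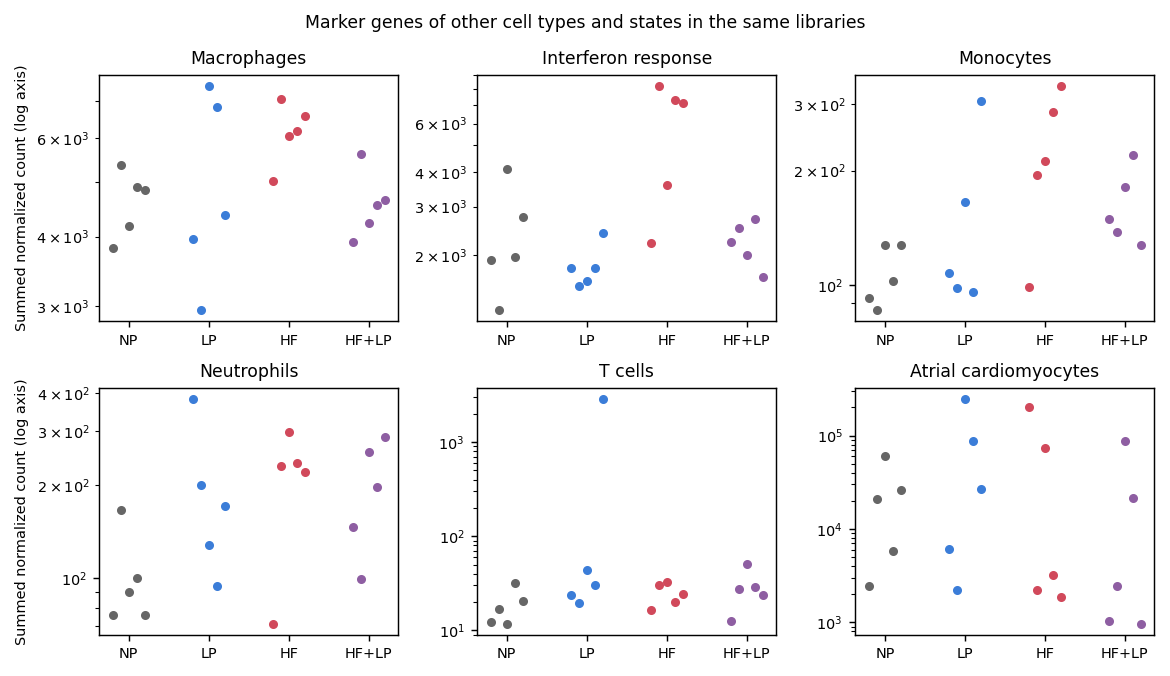
Summed normalized counts of marker genes (log axis, a separate scale for each list) in every mouse, with points in order of animal number. Macrophage sums are highest on average in HF, and 1 LP mouse holds a T cell sum of 2873 while all other mice lie between 11.8 and 50.4.

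With the macrophage score, the mean log2 CPM of the 10 markers, added to the model after the data had been seen, 0 members were at an unadjusted p under 0.05 in HF relative to NP. Over all genes tested, edgeR called 6 in place of 37 with the score. Tlr7 had a log2 fold change of 0.01 (unadjusted p = 0.986) in place of 0.58, and Casp1 had 0.10 (unadjusted p = 0.706) in place of 0.45. Tlr4 had 0.41 (unadjusted p = 0.148), against 0.46 and an unadjusted p of 0.023 without the score, and Il1b had 0.61 (unadjusted p = 0.217). With the score, HF+LP relative to HF gave Casp1 −0.09 and Tlr7 0.07. Since the score differs between the same diets, the effect of diet and that of the score are partly confounded in this model.

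**Figure D4:**
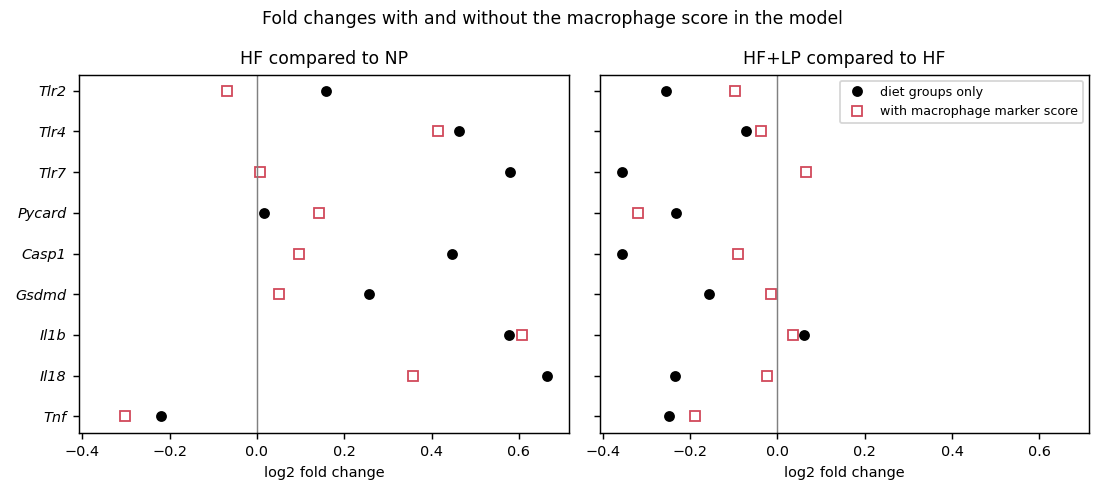
The log2 fold changes of the 9 tested members in HF relative to NP and in HF+LP relative to HF, with diet groups only (filled circles) and with the macrophage score in the model (open squares). Tlr7 and Casp1 sit near 0 with the score in HF relative to NP, while Tlr4 and Il1b lie at 0.41 (unadjusted p = 0.148) and 0.61 (unadjusted p = 0.217), and no member has an unadjusted p under 0.05 with the score.

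Within diets, after subtraction of each diet's mean, the members were compared with the same macrophage score over the 20 mice. Of 9 members, 0 correlated at an adjusted p under 0.05 (permutation test within diets). Tlr7 had the highest Pearson r, 0.59 (permutation p = 0.02, adjusted p = 0.18), with a Spearman rho of 0.59 (permutation p = 0.0234, adjusted p = 0.211), and r was 0.57 without the 2 mice farthest from the median score, LP mice 5 and 13. Casp1 had an r of 0.51 (permutation p = 0.0583, adjusted p = 0.262) and a rho of 0.26 (permutation p = 0.32, adjusted p = 0.86), and r was 0.12 without the same mice, so its relation rested on them. With 8 interferon response genes in place of the macrophage markers, also chosen after the data had been seen, 0 of 9 members correlated at an adjusted p under 0.05.

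The genes most like 8 of the members across the 20 mice, within diets, were found by Pearson r of log2 CPM and are given as a description. Pycard was closest to Hivep3 (r = 0.88), Il16 (0.85), and the T cell receptor gene Trac (0.85), a likeness with lower rank correlations (0.74, 0.56, and 0.48) in data that include LP mouse 20. Il18 was closest to Fam213a (0.88), Lsr (0.88), and Mpzl2 (0.87). The nearest genes of Gsdmd were Mthfd1l, Srm, and Khsrp (0.86, 0.86, and 0.85). For Tlr7 the nearest were Rgl2, Ppp1r3e, and 9430015G10Rik, all with an r of 0.82, and for Casp1 Raver1, Tbl1xr1, and Ppp1r3b (0.83, 0.78, and 0.77). Tlr2 was nearest to Prickle4, Rnls, and Ubl5 (0.88, 0.84, and 0.81), Tlr4 to Gna12, Sri, and Mboat1 (0.77, 0.76, and 0.74), and Il1b to Ankrd39, Bik, and Dnaja1 (0.79, 0.77, and 0.74). No member was among the 3 nearest genes of another. Between members, r was −0.60 for Tlr4 and Pycard, −0.53 for Tlr2 and Tlr4, −0.46 for Tlr4 and Gsdmd, and 0.41 for Tlr2 and Gsdmd.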

How the data were processed

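The 10 members, the gene lists, and the alternatives were chosen with earlier results of these data known. Libraries were made from left ventricular RNA with the QuantSeq 3′ method, which reads the end of each transcript, sequenced on an Illumina NextSeq, and aligned with BlueBee software. The deposited values are whole-number counts of reads for each Ensembl gene, left unnormalized by the authors. The submitters' processing notes name build GRCm38 and DESeq2 1.22.2, and the counting program and annotation are not given in the sources used here. Reads of Pycard and Il1b could not be told apart from those of antisense transcripts at the same exons if strand was ignored.

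The filterByExpr function of edgeR 4.0.16 (R 4.3.3), given the diets, kept 13991 of 15956 genes. After TMM scaling, the 20 libraries entered 1 quasi-likelihood fit, with Benjamini-Hochberg adjustment across the genes kept. Unless an adjusted p is named, p-values given beside a log2 fold change are unadjusted p-values of this test. Standard errors were derived from the F statistic, and 95% intervals from them. The main comparisons were HF with NP and HF+LP with HF. DESeq2 1.42.0, RLE size factors, other filters and thresholds, other models, and each mouse left out in turn were alternatives. Counts were simulated for HF against NP (13991 genes), with 200 genes of mean count over 50 changed by a log2 fold change of 1.5. From these counts, edgeR recovered 175 changed genes (87.5%) and called 0 others wrongly, and DESeq2 recovered 181 and called 3 wrongly. The members' estimates were smaller, and genes with fewer counts were not among those changed, so this recovery does not carry over to them.

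Exact and permutation tests were two-sided, with 100000 permutations for correlations. Coordinates are from GENCODE M21. All 10 members are named, and from each list the genes with the smallest unadjusted p, up to 3 in HF relative to NP and 2 in HF+LP relative to HF, though not all are printed. The genes most like Tnf are not reported here. Depth ranged from 12559607 to 23331907 counts.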

Additional observations from a re-analysis of the deposited data

How the results depend on the processing

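No member passed the call threshold under any alternative, with 0 called in all 6 comparisons, including each mouse left out in turn. The number of members at an unadjusted p under 0.05 did move. In HF relative to NP it was 3, 0 with the macrophage score, and 4, with Il18 added, with RLE size factors, without a filter, with only those groups in the model, or without LP mice 13 and 20. In HF+LP relative to HF it was 0, and 1 (Casp1) with only those groups in the model or with the library-name number as a covariate. In LP relative to NP it was 2, and 1 with at least 10 counts in every library, which removes Il1b, and 1 without LP mice 13 and 20. In HF+LP relative to NP it was 0, and 1 with DESeq2. In HF+LP relative to LP it was 1, and 3 without LP mice 13 and 20. In the interaction it was 2, 1 without LP mice 13 and 20 or with the macrophage score, and 3, with Gsdmd added, with RLE size factors, DESeq2, at least 10 counts in every library, or the library-name number as a covariate. Except where stated, the cause was not tested. Leaving out each mouse gave 2 to 4 members in HF relative to NP, 0 to 1 in HF+LP relative to HF (1 without LP mouse 5, HF mouse 1, or HF+LP mouse 1), 1 to 4 in LP relative to NP (1 without LP mouse 20, 4 without LP mouse 5), 0 to 1 in HF+LP relative to NP, 1 to 2 in HF+LP relative to LP, and 1 to 3 in the interaction.

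Animal numbers repeat between diets but belong to different mice, and same-numbered HF and HF+LP mice did not deviate together (mean correlation −0.03 over 5 pairs, 2 of them over 0.1). With the animal number as a replicate block, mice whose number occurs in 1 diet only add nothing to the diet estimates. These are NP mice 6 and 8 and LP mice 13, 15, and 20, so that LP rests on mice 2 and 5. Under the block, the members at an unadjusted p under 0.05 were 2 in HF relative to NP, 0 in HF+LP relative to HF, and 1 in each of the other comparisons. In HF relative to NP they were Tlr4 (unadjusted p = 0.0386) and Il1b (1.06, unadjusted p = 0.0123), while Tlr7 (unadjusted p = 0.0803) and Casp1 (unadjusted p = 0.14) were not among them. In HF+LP relative to LP it was Tlr7 (1.07, unadjusted p = 0.015) in place of Pycard (unadjusted p = 0.0932). In LP relative to NP (1.98 in place of 0.93), HF+LP relative to NP, and the interaction it was Il1b. Estimates with the other sign under the block were Tlr2 −0.038 and Pycard −0.0095 in HF relative to NP, Tlr2 −0.43, Casp1 −0.087, Gsdmd −0.18, and Il18 −0.41 in LP relative to NP, Gsdmd −0.044 in HF+LP relative to NP, Tlr2 0.13, Tlr4 −0.076, Casp1 0.10, and Gsdmd 0.13 in HF+LP relative to LP, and Tlr2 0.17, Tlr7 0.51, Gsdmd 0.021, and Il18 0.15 in the interaction.

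With the macrophage score, the sign differed for Tlr2 (−0.069) and Tnfrsf1a (−0.25) in HF relative to NP, Tlr7 (0.066) in HF+LP relative to HF, and Tlr7 (0.39) in the interaction. Without LP mice 13 and 20 it differed for Il18 in LP relative to NP (−0.46), and in the interaction for Tlr7 (0.11) and Il18 (0.22). With each mouse left out, some estimates took both signs. They ran from −0.068 to 0.074 for Pycard and −0.72 to 0.047 for Tnf in HF relative to NP, from −0.17 to 0.035 for Tlr4, −0.11 to 0.24 for Il1b, and −0.52 to 0.25 for Tnf in HF+LP relative to HF, from −0.073 to 0.41 for Il18 and −0.031 to 0.38 for Tnf in LP relative to NP, from −0.20 to 0.0062 for Tlr2 and −0.027 to 0.17 for Casp1 in HF+LP relative to NP, from −0.045 to 0.49 for Il18 in HF+LP relative to LP, and from −0.28 to 0.0098 for Tlr7 and −0.68 to 0.085 for Tnf in the interaction. Few counts limit Nlrp3, Tnf, Il1b, and Il18.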
